A study of Mus musculus with 36 samples.

Results

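The first hour of the response of wild-type dendritic cells to a viral RNA ligand was measured by comparing 3 RNA-seq libraries of cells transfected with PAMP RNA with 3 libraries of mock cells collected at the same time. These 6 libraries are 6 of the 36 in the series, and were chosen by their labels (genotype WT, 1 h) with no use of measured values. The cells were bone marrow-derived dendritic cells of wild-type C57BL/6 mice, cultured with GM-CSF and selected for CD11c. PAMP RNA is an RNA agonist of RIG-I made from the poly-U/C stretch of hepatitis C virus RNA and given at 20 ng by transfection, and the mock cells are described in the labels both as mock-treated and as left untreated, so the transfection itself may not be matched. The other 30 libraries hold the same 2 treatments of wild-type cells at 3 and 6 h and of LGP2-/- cells (Dhx58-/-, labelled KO) at 1, 3 and 6 h, with 3 libraries a group. The labels call the 3 libraries of a group biological triplicates by plating and name no animal, so the p-values below measure the spread between these libraries.

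RIG-I is a cytosolic helicase that binds viral RNA and signals through the mitochondrial adaptor MAVS. The signal activates the kinases that switch on interferon regulatory factors such as IRF3, and also NF-kB and the MAP kinases that act on AP-1. Type I interferon made in this way is secreted, binds its receptor on the same and on neighbouring cells, and drives a later set of interferon-stimulated genes through ISGF3, the complex of STAT and IRF9 proteins. LGP2, the product of Dhx58, belongs to the RIG-I family but has no signalling domain of its own.

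At 1 h, 95 of 11853 genes with a mean of at least 10 normalized counts rose (0.801%) and 17 fell (0.143%), at an adjusted p under 0.05 in limma's test on log2(normalized count + 1), with Benjamini-Hochberg adjustment over all genes tested. The leading genes were Ifnb1, several Ifna genes, Cxcl10, the Ifit family, Il6, Ccl4, Egr1, Ppp1r15a and Tnf. Among the 95 rises, 41 were by log2 1 or more and 15 by log2 2 or more, while 28 were under log2 0.5. The median rise was 0.83, the median fall was -0.25 and the median of all genes tested was -0.01. Without 1 library at a time, 60 of the 95 rises and 2 of the 17 falls were called each time, and in all 18 alternative settings together 56 and 2 were, with no change of sign. In bulk RNA a change in the share of cells of a type and a change in RNA per cell cannot be told apart.

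The promoters of 5 of these genes are shown because they hold the letters of binding motifs for the factors named above and stand for the interferon, chemokine, antiviral, feedback and stress genes described below. Each run is the 250 bases before the RefSeq gene start in GRCm38.p6, read 5′ to 3′ on the gene's strand, with motif matches in capitals.
Ifnb1 (chr4:88522795-88523044, minus strand): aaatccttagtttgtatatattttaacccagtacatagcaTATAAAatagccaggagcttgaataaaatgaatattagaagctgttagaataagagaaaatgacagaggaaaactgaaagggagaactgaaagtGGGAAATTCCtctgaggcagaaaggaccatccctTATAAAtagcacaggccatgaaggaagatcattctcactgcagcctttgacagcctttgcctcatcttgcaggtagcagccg
Cxcl10 (chr5:92348890-92349139, minus strand): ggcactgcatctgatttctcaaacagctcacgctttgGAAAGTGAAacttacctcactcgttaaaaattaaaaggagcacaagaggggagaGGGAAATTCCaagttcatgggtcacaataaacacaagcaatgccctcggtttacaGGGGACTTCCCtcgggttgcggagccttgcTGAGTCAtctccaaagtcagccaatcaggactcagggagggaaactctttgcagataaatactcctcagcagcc
Ifit1 (chr19:34640639-34640888, plus strand): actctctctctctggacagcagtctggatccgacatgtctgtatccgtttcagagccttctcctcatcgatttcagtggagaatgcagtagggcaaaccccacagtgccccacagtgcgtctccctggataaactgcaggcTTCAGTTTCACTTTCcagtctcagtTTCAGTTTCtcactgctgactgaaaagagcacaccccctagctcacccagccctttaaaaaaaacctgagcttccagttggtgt
Nfkbia (chr12:55492648-55492897, minus strand): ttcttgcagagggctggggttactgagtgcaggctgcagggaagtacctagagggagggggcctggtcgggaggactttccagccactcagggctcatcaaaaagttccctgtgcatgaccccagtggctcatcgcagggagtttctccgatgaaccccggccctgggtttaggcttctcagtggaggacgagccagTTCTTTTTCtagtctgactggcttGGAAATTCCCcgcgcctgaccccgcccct
Ppp1r15a (chr7:45526269-45526518, minus strand): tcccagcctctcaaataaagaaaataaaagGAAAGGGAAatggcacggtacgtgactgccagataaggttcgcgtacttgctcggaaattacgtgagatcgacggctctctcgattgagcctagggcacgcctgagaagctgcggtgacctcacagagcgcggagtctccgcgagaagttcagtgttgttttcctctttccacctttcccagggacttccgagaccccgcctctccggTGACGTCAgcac
The capitals mark 8 motifs searched on both strands, of which the ISRE core was GAAANNGAA, AP-1 was TGANTCA, CRE was TGACGTCA, EGR was GCGNGGGCG, the TATA box was TATAAA and GAS was TTCNNNGAA, with the NF-kB consensus and the SRF CArG box searched by their usual degenerate forms. Ifit1 held 3 matches to the ISRE core between 109 and 76 bases before its start, 2 of them overlapping. Cxcl10 held 1 ISRE core match, 3 NF-kB consensus matches of which 2 overlap, and 1 AP-1 match. Ifnb1 held an NF-kB consensus match from 116 to 107 bases before its start and 2 TATA boxes. It held no match to the ISRE core, which was searched in 1 fixed spacing, and other forms of site for interferon regulatory factors were not searched. Nfkbia held an NF-kB consensus match from 29 to 20 bases and an ISRE core match from 53 to 45 bases before its start. Ppp1r15a held a CRE from 12 to 5 bases and an ISRE core match from 220 to 212 bases before its start. Promoters of other risen genes of the same fixed set were searched but are not printed. Those of Tnf, Dusp1 and Zfp36 held no ISRE core, NF-kB consensus or AP-1 match. Tnf held only a TATA box, Dusp1 only a CRE, and Zfp36 a CArG box, an EGR and a GAS match. That of Fos held an NF-kB consensus match and a TATA box.

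Across the genes tested, 7591 matched a RefSeq symbol with exactly 1 such window, among them 65 of the 95 genes that rose and 15 of the 17 that fell. The ISRE core was in 26.2% of the windows of risen genes (17 of 65) and in 6.57% of all 7591 windows. The NF-kB consensus was in 26.2% of the windows of risen genes (17 of 65) and in 8.75% of all windows. For genes that rose by log2 1 or more (29 windows) these shares were 41.4% and 31.0%. In both sets the windows with the ISRE core include those of Ifna1, Ifna2, Ifna4 and Ifna5 and of Ifit1, Ifit3 and Ifit3b (I830012O16Rik). These members of the Ifna and Ifit clusters were counted as separate windows. The CRE was in 9.23% of the windows of risen genes against 2.82% of all, AP-1 in 10.8% against 4.08%, the TATA box in 16.9% against 6.18%, GAS in 10.8% against 6.34%, EGR in 10.8% against 8.64% and the CArG box in 3.08% against 1.07%. Of the 15 windows of genes that fell, 3 held AP-1 (20.0%), 2 the ISRE core (13.3%), 1 the CArG box (6.67%) and none the other 5 motifs, counts too few to set against the shares of all windows. These shares describe letters in a short window, and base composition was not matched between the sets.

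**Figure D1:**
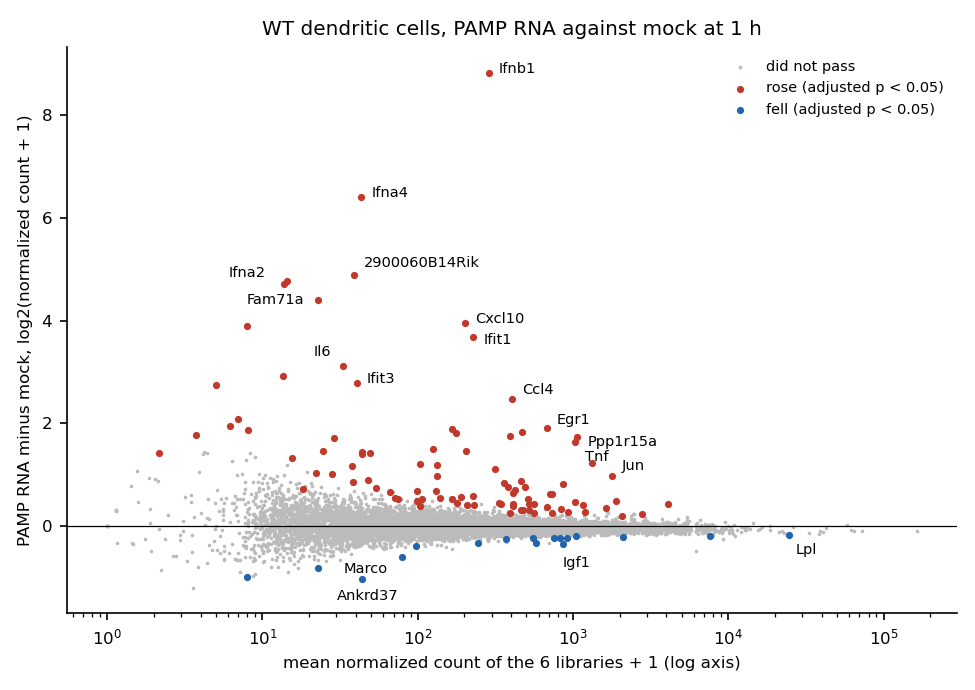
Each point is 1 of the 11853 genes tested, with its mean normalized count in the 6 wild-type libraries at 1 h plus 1 (log axis) against the difference of PAMP RNA from mock on the log2(normalized count + 1) scale. The 95 genes that rose (red) include Ifnb1 at 8.83 and Ifna4 at 6.41, while the 17 that fell (blue) reach -1.03 for Ankrd37.

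Of the 20 type I and III interferon genes listed, 11 were tested and 5 rose, with none falling: Ifnb1, Ifna4, Ifna2, Ifna5 and Ifna1. Ifnb1 (chr4:88522025-88522794), which encodes interferon beta, was at 0, 0.963 and 0 normalized counts in mock replicates 1, 2 and 3 and at 544.1, 615.6 and 553.2 in the PAMP RNA replicates. These correspond to 1 read in the mock group and 2019 reads after PAMP RNA, a ratio of 1835 with a 95% counting interval from 329 to 72520, and the groups were far apart. Ifna4 (chr4:88841816-88842459) had no read in any mock library and 82.5, 95.5 and 74.9 normalized counts after PAMP RNA, at least 90.3-fold higher when the mock group is set at a floor of 3 reads in all. The neighbouring interferon alpha genes were lower: Ifna2 had 95 reads over the 3 PAMP RNA libraries, Ifna5 had 90 and Ifna1 had 49, against none in mock, for bounds of at least 28.8-, 27.3- and 14.8-fold. Ifna6 had 4 reads against none and did not pass (adjusted p = 0.457). Ifna9, Ifna11, Ifna14, Ifna15 and Ifnab had at most 3 reads in all PAMP RNA libraries, so a change in them was not detectable at this depth. The median fitted difference of the 11 was 1.07, beside -0.01 for all genes, but 5 of the 11 had too few reads in both groups for a fold. Over the other 6 it was 4.81, with Ifnb1 at its ratio and the 5 others at their bounds, and these 6 are the members with more than 3 reads after PAMP RNA. The filter for testing used the mean of all 36 libraries. Members such as Ifna1, at 0 in every mock group, passed it only through PAMP RNA libraries. These medians therefore describe the members tested and are not a test. The Ifna genes are near-identical copies in a cluster on chromosome 4, and reads shared between them make the split among single members uncertain.

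Genes of the machinery that senses RNA and signals to the interferon genes were mostly not called. Of 31 genes tested in the list of RNA sensing and signalling, 1 rose and none fell, and the median was 0.01. The gene that rose was Ifih1, which encodes the RNA sensor MDA5, from 213.3, 176.2 and 205.8 in mock to 250.0, 271.5 and 268.9 after PAMP RNA (log2 0.41 ± 0.08, adjusted p = 0.00175). Its groups did not overlap, but the call was lost without mock replicate 2 (adjusted p = 0.0618) and in 1 of the 12 other settings (adjusted p 0.0799). Ddx58, which encodes RIG-I itself, stood at 199.8, 176.2 and 182.3 in mock and 175.7, 216.3 and 193.2 after PAMP RNA, and its groups overlapped (adjusted p = 0.916). The adaptor gene Mavs (-0.07 ± 0.07), the kinase gene Tbk1 (0.10 ± 0.07) and Irf3 (0.15 ± 0.08) did not pass, with adjusted p of 0.875, 0.759 and 0.651. Irf7, the interferon regulatory factor that amplifies Ifna transcription, was at 39.4, 27 and 18.8 and then 36, 33.3 and 33.2, with overlapping groups (adjusted p = 0.634). Irf1 was higher in each PAMP RNA library (820.2, 798.6 and 834.1) than in each mock library (776.1, 704.9 and 629.6) but missed the threshold (log2 0.22 ± 0.06, adjusted p = 0.0617). Dhx58 was at 94.1, 103 and 83.6 in mock and 98, 105.1 and 91.9 after PAMP RNA, with overlapping groups.

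No gene passed in limma's test among 18 interferon receptor, Janus kinase and STAT genes (median -0.03), and none in edgeR or DESeq2. At an unadjusted p under 0.05 there were 3 of the 18, beside 1055 of all 11853 genes. Ifnar1 and Ifnar2, the 2 chains of the type I interferon receptor, stood at log2 differences of -0.12 ± 0.04 and -0.09 ± 0.06. Stat2 and Irf9, components of ISGF3, stood at 0.08 ± 0.08 and 0.21 ± 0.08, with adjusted p of 0.854 and 0.377. Among 14 SOCS and other feedback inhibitors of cytokine signalling, Socs3 rose from 373.7, 329.3 and 358 to 510.6, 462.3 and 413.6 (log2 0.38 ± 0.10, adjusted p = 0.0309), a call lost at adjusted p of 0.0826 to 0.264 without mock replicates 2 and 3 or PAMP RNA replicates 1 and 2 and in 3 of the 12 other settings (adjusted p 0.063 to 0.117). Usp18, an inhibitor of the interferon receptor, was at 80.7, 75.1 and 54.5 and then 76, 78.8 and 84.3 and did not pass.

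Antiviral effectors that IRF3 can induce directly had a median of 1.47 over 16 genes tested, of which 10 rose and 1 fell. Cxcl10, a chemokine for activated T cells, was at 27.8, 21.2 and 21.6 in mock and 338.2, 416.8 and 381.3 after PAMP RNA, a 16.1-fold rise of the means (log2 3.96 ± 0.14, adjusted p = 1.64e-26). Ifit1, whose protein binds viral RNA ends, was at 32.3, 38.5 and 26.3 in mock and 413.4, 442.2 and 405.1 after PAMP RNA, 13-fold (log2 3.67 ± 0.16). Both genes had every PAMP RNA library more than 10 times any mock library. Ifit3 was at 8.06, 14.4 and 6.58 and then 63.7, 70.9 and 73.2 (log2 2.78 ± 0.16). Ifit2 was at 86.9, 76.1 and 68.6 and then 273.7, 289 and 252.8 (log2 1.81 ± 0.13). Rsad2, which encodes viperin, went from 72.6, 53.9 and 83.6 to 232, 282.8 and 263.8 (log2 1.89 ± 0.14). In these 3 genes the lowest PAMP RNA library lay well above the highest mock library. The ubiquitin-like modifier gene Isg15 rose from 98.6, 54.9 and 46 to 178.1, 179.5 and 184.7 (log2 1.51 ± 0.17), with mock replicate 1 the highest of the mock libraries. Oasl1, of the oligoadenylate synthetase-like family, rose by 1.42 ± 0.16.

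Members of the Ifit cluster on chromosome 19 lie next to each other, and their annotated spans overlap in part. Ifit3b (I830012O16Rik in the table) rose by 2.92 ± 0.29 and Ifit1bl1 (Gm14446) by 1.32 ± 0.19, the latter with an adjusted p of 0.0829 in edgeR's and 0.0930 in the fit of the 6 libraries alone. Ifit1bl2 (2010002M12Rik) had 2 reads in mock and 17 after PAMP RNA, and its call was lost at adjusted p of 0.0964 to 0.11 without mock replicate 3 or PAMP RNA replicates 2 and 3 and in 5 of the 12 other settings (adjusted p 0.0532 to 0.313). Gm14446 overlaps Ifit1, I830012O16Rik and 2010002M12Rik in the annotation, and the labels give no strand for the libraries, so reads of these genes cannot be fully assigned. The 5 members of the list that did not pass at 1 h were Isg20 (0.43), Herc6 (0.17), Cmpk2 (0.11), Ccl5 (0.07) and Gbp2 (0.01). Ifi44 went the other way, from 9.86, 11.6 and 7.52 to 4.08, 4.38 and 4.25 (log2 -1.005 ± 0.23, adjusted p = 0.00941), at most 12 reads in any library, and it lost its call without mock replicate 2 (adjusted p = 0.0958) and in 5 of the 12 other settings (adjusted p 0.0522 to 0.382), edgeR and DESeq2 among them.

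Of the genes known to depend on ISGF3, 2 of 38 rose at 1 h, none fell and the median was 0.02. Mx2 was at 20.6, 22.1 and 26.3 in mock and 60.5, 68.3 and 58.7 after PAMP RNA (log2 1.41 ± 0.12, adjusted p = 2.38e-12); the annotation lists it as a transcribed pseudogene. Rtp4 rose from 32.3, 41.4 and 25.4 to 58, 60.4 and 64.7 (log2 0.89 ± 0.16), although edgeR gave it an adjusted p of 0.0904. Mx1, an interferon-induced GTPase, was at 1681, 1394 and 1420 in mock and 1704, 1999 and 1723 after PAMP RNA, and the groups did not overlap, but it missed the threshold (log2 0.27 ± 0.08, adjusted p = 0.105). Oas1b was at 18.8, 6.74 and 16 and 23.7, 38.5 and 14.5, with overlapping groups. The remaining 34 members lay between -0.30 for Ms4a4c and 0.21 for Xaf1.

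**Figure D2:**
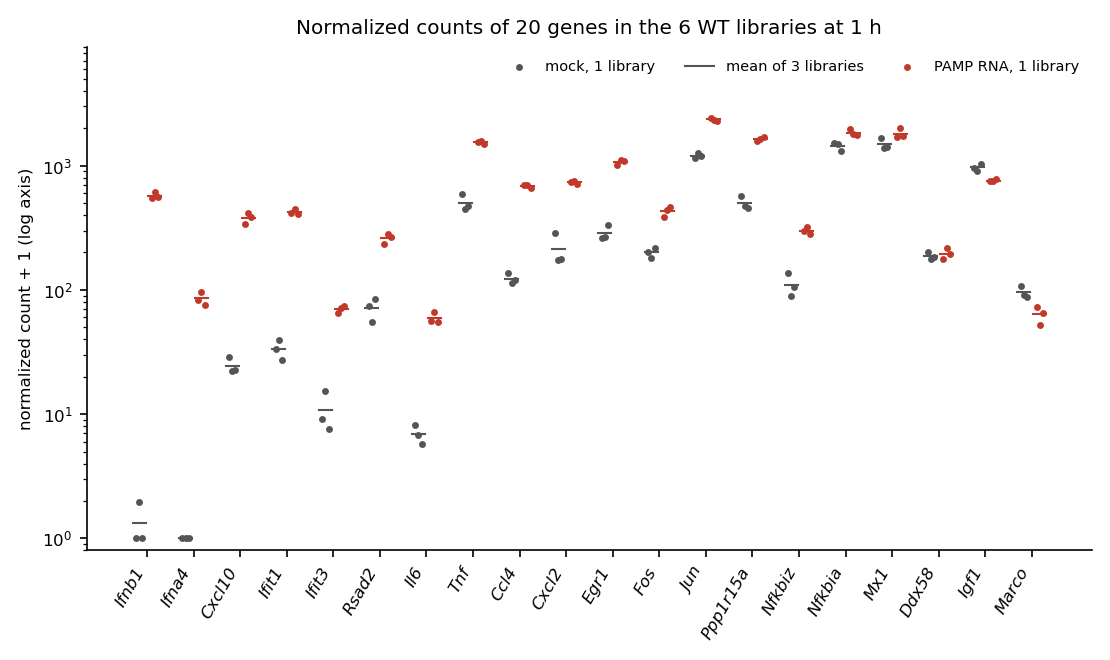
Points are single libraries, 3 mock (grey) and 3 PAMP RNA (red) per gene, as normalized count + 1 on a log axis, with the mean of each group as a bar. Ifnb1 and Ifna4 start at or near 0 reads, Cxcl10 and Ifit1 separate by more than 10-fold, while the Mx1 libraries of the 2 groups lie close and the Ddx58 libraries overlap.

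Of 21 inflammatory cytokine genes tested, 5 rose, none fell, and the median was 0.45. Il6 was at 7.17, 5.78 and 4.7 in mock and 54.7, 65.7 and 53.6 after PAMP RNA, 9.86-fold (log2 3.11 ± 0.29, adjusted p = 3.97e-11). Tnf started from a much higher normalized count, 585.2, 448.8 and 471.7 in mock, and reached 1542, 1588 and 1500, 3.08-fold (log2 1.63 ± 0.08, adjusted p = 8.12e-22). Both cytokine genes had groups far apart. Tnfsf15, which encodes the TNF-family ligand TL1A, rose from 81.5, 71.3 and 87.4 to 192, 195.3 and 166 (log2 1.20 ± 0.10). Il1a rose by 0.43 ± 0.10, a call lost at adjusted p of 0.101 to 0.164 without mock replicates 2 and 3 or PAMP RNA replicate 1 and in 3 of the 12 other settings (adjusted p 0.0576 to 0.116). Osm, which encodes oncostatin M, rose by 0.45 ± 0.12 and lost its call without any 1 of the 6 libraries (adjusted p from 0.0509 to 0.206) and in 4 of the 12 other settings (adjusted p 0.0515 to 0.0729). Il12b, for the p40 subunit of IL-12 and IL-23, was at 62.7, 41.4 and 54.5 and then 93.1, 90.2 and 68.9, with no overlap and an adjusted p of 0.0642. Il1b, at a log2 difference of 0.28 ± 0.15 (adjusted p = 0.601), and Lta, at 1.34 ± 0.39 (adjusted p = 0.0957), did not pass.

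Among CC chemokines 3 of 11 rose and among CXC chemokines 4 of 8, with none falling in either list in limma's test. DESeq2 called 1 CC chemokine lower and edgeR called 0. In limma's test Ccl9 was near the threshold (log2 -0.19 ± 0.05, adjusted p = 0.0526), and 2 CXC chemokines were lower at an unadjusted p under 0.05. Ccl4, an inflammatory chemokine, was at 134.4, 111.7 and 119.3 in mock and 692, 693.5 and 663 after PAMP RNA, 5.61-fold (log2 2.48 ± 0.10, adjusted p = 1.76e-24). Ccl3, its neighbour and close relative, rose less, from 372.8, 272.5 and 335.5 to 602.1, 607.7 and 583 (log2 0.88 ± 0.09). The annotated spans of these 2 genes overlap on chromosome 11. Ccl2, a chemokine for monocytes, rose from 380.9, 347.6 and 356.1 to 602.1, 572.7 and 668.1 (log2 0.76 ± 0.13). Cxcl2, a neutrophil chemokine, was at 283.2, 172.4 and 176.7 in mock and 733.6, 749.6 and 711.5 after PAMP RNA (log2 1.83 ± 0.11), with mock replicate 1 above the other mock libraries. Cxcl1, its close relative, rose by 1.47 ± 0.30 from 18.8, 7.7 and 10.3 to 34.3, 44.7 and 24.7, and lost its call at adjusted p of 0.0618 to 0.0673 without mock replicate 2 or PAMP RNA replicate 2. Cxcl11 had 8 reads after PAMP RNA and none in mock, at least 2.42-fold higher, with 1 PAMP RNA library at 0 as well. Its call (adjusted p = 0.046) was lost without 5 of the 6 libraries, all but PAMP RNA replicate 1, at adjusted p of 0.083 to 0.414 and in 9 of the 12 other settings (adjusted p 0.0529 to 0.727). Ccl5, a later chemokine of antiviral responses, was at 1523, 1595 and 1480 and 1613, 1532 and 1696 and its groups overlapped.

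Immediate-early genes, which need no new protein to be transcribed, made up the next group. Of 13 AP-1 genes, 3 rose: Fos, Jun and Junb. Fos was at 202.5, 181 and 215.2 in mock and 385.6, 441.3 and 459.6 after PAMP RNA, 2.15-fold (log2 1.10 ± 0.10). Jun was at 1144, 1262 and 1203 and then 2432, 2346 and 2266 (log2 0.96 ± 0.10), and Junb went from 3338, 3675 and 3420 to 5033, 4644 and 4283 (log2 0.42 ± 0.10). The Junb call was lost at adjusted p of 0.0608 to 0.134 without mock replicates 1 and 3 or PAMP RNA replicates 1 and 2 and in 2 of the 12 other settings (adjusted p 0.0883 to 0.148). The other 10 AP-1 genes lay between -0.32 for Fosl1 and 0.29 for Maff, with Atf3 at 0.05 and Fosb at 0.09.

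Of 38 genes of the EGR, NR4A, KLF and other immediate-early families, 10 rose and none fell, with a median of 0.19. Egr1, a zinc finger factor of growth and stress signals, was at 261.7, 265.8 and 328.9 in mock and 1004, 1117 and 1079 after PAMP RNA, 3.74-fold (log2 1.91 ± 0.09, adjusted p = 1.49e-21). Phlda1 rose from 159.5, 185.9 and 188.9 to 613.6, 590.2 and 600.0 (log2 1.75 ± 0.09). Rgs1, which damps G protein signals, rose from 912.3, 786.8 and 708.5 to 1873, 1845 and 1880 (log2 1.22 ± 0.08). In all 3 genes the libraries within a group lay close and the groups were well apart. Ier3 (0.76 ± 0.15), Ier2 (0.62 ± 0.08), Plk2 (0.62 ± 0.06), Btg2 (0.47 ± 0.06) and Csrnp1 (0.43 ± 0.08) rose less, and the fit without a mean trend gave Ier3 an adjusted p of 0.0601. Gadd45b (0.36 ± 0.09) lost its call at adjusted p of 0.168 to 0.26 without mock replicate 3 or PAMP RNA replicates 1 and 2 and in 3 of the 12 other settings (adjusted p 0.0756 to 0.119), and Egr2 (0.27 ± 0.07) at adjusted p of 0.105 to 0.321 without mock replicate 2 or PAMP RNA replicates 2 and 3 and in 3 of the 12 other settings (adjusted p 0.0856 to 0.303). Nr4a1 (0.49 ± 0.16) and Nr4a2 (0.53 ± 0.30) did not pass. Dusp1, which switches off MAP kinases, was the 1 of 13 phosphatase and Sprouty genes that rose, from 594.2, 593.2 and 666.2 to 1125, 1035 and 1126 (log2 0.83 ± 0.08).

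None of the 5 NF-kB subunit genes passed in limma's test, edgeR or DESeq2, and 0 had an unadjusted p under 0.05. Their differences lay between -0.06 for Rela and 0.06 for Rel. Of the inhibitors and ubiquitin-editing brakes of NF-kB, 3 of 13 rose, and none fell. Nfkbiz, which encodes the nuclear regulator IkB-zeta, was at 136.2, 87.6 and 104.3 in mock and 295.7, 318.7 and 280.0 after PAMP RNA, 2.73-fold (log2 1.46 ± 0.10). Tnfaip3, which encodes the ubiquitin-editing enzyme A20, rose from 1074, 900.4 and 1010 to 1306, 1324 and 1334 (log2 0.41 ± 0.06). Nfkbia, which encodes IkB-alpha, rose from 1523, 1499 and 1316 to 1962, 1783 and 1766 (log2 0.35 ± 0.06, adjusted p = 0.000153). The latter 2 rises were small, and their groups did not overlap. Zfp36, whose protein tristetraprolin destabilises cytokine mRNAs, was the 1 of 12 decay factors that rose, from 1554, 1479 and 1681 to 2288, 2125 and 2185 (log2 0.49 ± 0.05).

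Of 18 other NF-kB target genes 2 rose. Sdc4, a cell-surface proteoglycan, rose from 87.8, 86.7 and 93 to 172.4, 184.8 and 170.2 (log2 0.97 ± 0.10). Ptgs2, which encodes cyclooxygenase-2, was at 47.5, 6.74 and 24.4 in mock and 58, 47.3 and 36.6 after PAMP RNA, so its groups overlapped, and its call (adjusted p = 0.0461) was lost at adjusted p of 0.0618 to 0.594 without mock replicates 2 and 3 or PAMP RNA replicates 1 and 2 and in 6 of the 12 other settings (adjusted p 0.0775 to 0.664). Cxcl11 was the only other called gene of the 112 whose groups overlapped.

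Of 17 genes of the integrated stress response, 3 rose and the median was -0.03. Ppp1r15a, which encodes GADD34, the phosphatase subunit that restores translation after eIF2-alpha phosphorylation, was at 567.3, 469 and 454.8 in mock and 1570, 1637 and 1706 after PAMP RNA, 3.29-fold (log2 1.73 ± 0.08, adjusted p = 5.57e-22). Its groups were far apart. Gdf15 rose by 0.63 ± 0.15 and Atf4 by 0.23 ± 0.06, calls lost at adjusted p of 0.0604 to 0.123 without mock replicates 1 and 3 or PAMP RNA replicates 1 and 2 and in 2 of the 12 other settings (adjusted p 0.0581 to 0.0601), and of 0.0821 to 0.515 without mock replicate 3 or PAMP RNA replicates 1, 2 and 3 and in 3 of the 12 other settings (adjusted p 0.0711 to 0.402). Ddit3 (0.25 ± 0.11) did not pass. Of 14 heat shock and chaperone genes, the near-identical inducible HSP70 genes Hspa1b and Hspa1a rose. Hspa1b was at 7.17, 13.5 and 18.8 and then 37.6, 49.9 and 40.9 (log2 1.71 ± 0.19). Hspa1a was at 25.1, 21.2 and 33.8 and then 49.8, 45.5 and 48.5 (log2 0.85 ± 0.18), a call lost without mock replicate 2 (adjusted p = 0.086) and in 1 of the 12 other settings (adjusted p 0.0799). The other 12 chaperone genes lay between -0.14 for Bag3 and 0.12 for Hspe1.

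Of 23 dendritic cell maturation genes tested, 1 rose: Il15ra, the receptor chain that presents IL-15, from 98.6, 78 and 69.5 to 115.2, 120.0 and 107.2 (log2 0.48 ± 0.10), a call lost without mock replicate 3 (adjusted p = 0.0661) and in 1 of the 12 other settings (adjusted p 0.313). Cd40 was at 48.4, 55.9 and 35.7 in mock and 59.6, 58.7 and 43.4 after PAMP RNA, Cd86 at 1811, 1522 and 1393 and 1574, 1641 and 1672, and Ccr7, the receptor for migration to lymph nodes, at 5799, 5337 and 5047 and 5671, 5481 and 6089. In all 3 of these genes the groups overlapped. Limma's test called no gene among 12 MHC class II genes, 19 MHC class I and peptide loading genes, 21 myeloid receptor genes or 30 mitosis and replication genes, and neither did edgeR or DESeq2. Their medians were 0.017, 0.016, -0.004 and -0.040, and 1, 3, 4 and 0 of them had an unadjusted p under 0.05. Outside that MHC class I list, H2-K2, which the annotation gives as a transcribed pseudogene, rose by 0.53 ± 0.10 (limma, adjusted p = 0.00102). Of 20 death receptor, death ligand and BCL-2 family genes, Pmaip1, which encodes NOXA, rose by 0.19 ± 0.05, a call lost without 5 of the 6 libraries, all but mock replicate 3, at adjusted p of 0.0579 to 0.318 and in 3 of the 12 other settings (adjusted p 0.0651 to 0.484).

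Of 11 inducible metabolic enzymes 4 rose. Hdc, which makes histamine, was at 1.79, 3.85 and 1.88 and then 8.99, 11.4 and 14.5 (log2 1.87 ± 0.39). Irg1, now Acod1, which makes itaconate, rose from 790.4, 724.2 and 715.1 to 916.7, 941.3 and 930.2 (log2 0.32 ± 0.06). Ch25h, which makes 25-hydroxycholesterol, was at 22.4, 10.6 and 9.4 and 22.9, 33.3 and 28.9 (log2 1.04 ± 0.27), a call lost at adjusted p of 0.138 to 0.423 without mock replicates 2 and 3 or PAMP RNA replicates 2 and 3 and in 7 of the 12 other settings (adjusted p 0.0503 to 0.26). The 4th was Ptgs2. Of 25 hypoxia-inducible and glycolysis genes, Adm, which encodes adrenomedullin, rose from 0.896, 1.93 and 1.88 to 8.99, 7.88 and 9.36 (log2 1.95 ± 0.37), with adjusted p of 0.0703 and 0.0766 in the 2 count-model tests. Ankrd37 fell, as given below with the falls. Of 7 noncoding RNAs tested, Snhg1 rose by 0.68 ± 0.15 (adjusted p of 0.0729 to 0.121 without mock replicate 3 or PAMP RNA replicates 2 and 3).

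**Figure D3:**
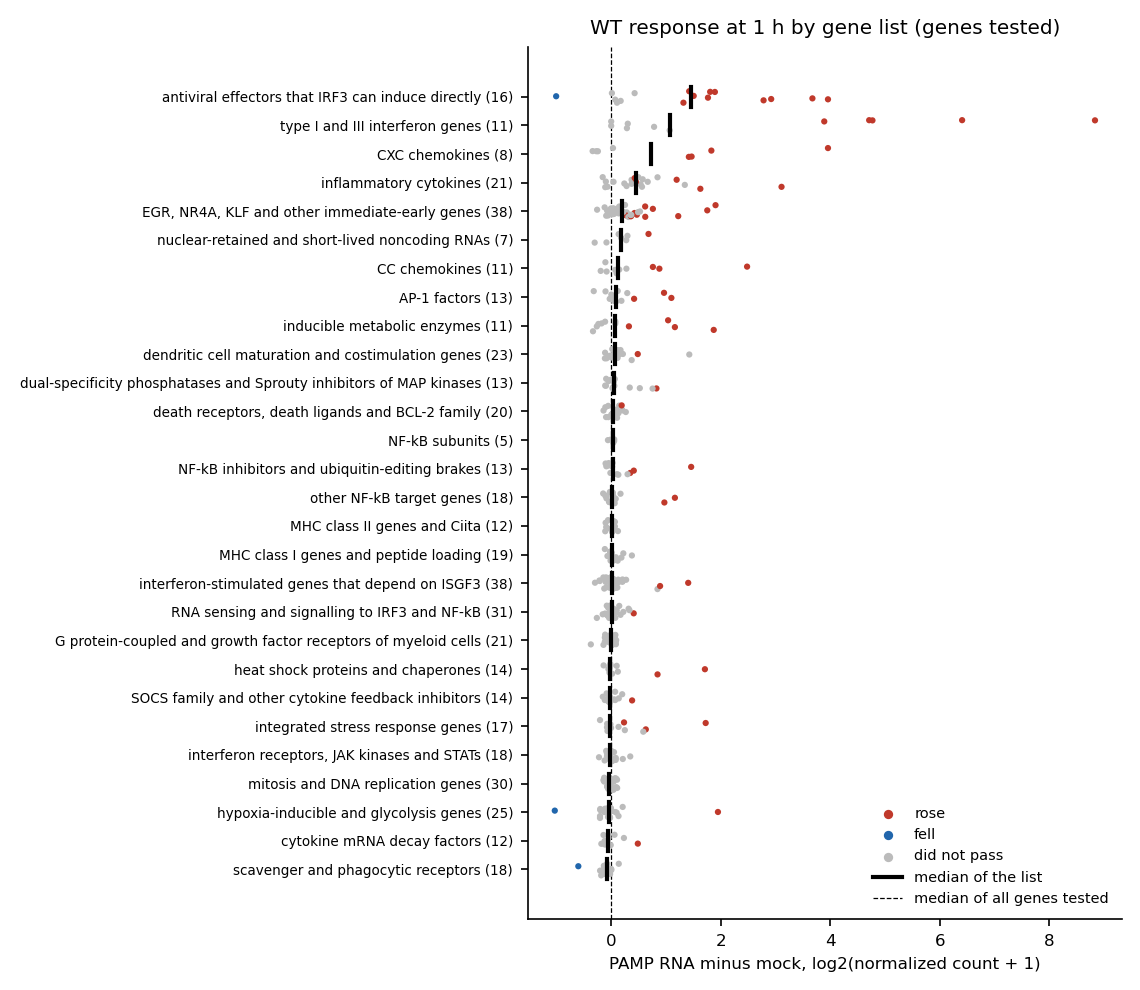
Each row is a gene list with its number of tested genes in parentheses, each point a gene, on the axis of PAMP RNA minus mock as log2(normalized count + 1). Lists are sorted by their median (black bar), and the top rows, antiviral effectors and interferons, have medians of 1.47 and 1.07, while most list medians lie near that of all genes. The order of these top rows rests on 5 interferon genes with too few reads for a fold, without which the interferon median is 4.81. Interferon genes such as Ifna1 passed the filter only through PAMP RNA libraries, so their rank is a description.

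Outside the lists, 33 of the 95 risen genes were not in any list, and among all 95 the annotation counts 85 protein-coding genes, 7 long noncoding RNAs and 3 transcribed pseudogenes. The long noncoding RNA 2900060B14Rik (chr1:118458669-118459265) had the third-largest rise, from 1.79, 0.963 and 1.88 to 91.5, 63 and 68.1 (log2 4.89 ± 0.35, adjusted p = 2.19e-15). Fam71a (chr1:191162584-191164817) went from 1.79, 0 and 1.88 to 40, 51.7 and 34.9 (log2 4.41 ± 0.38). Both were near 0 in mock and high in every PAMP RNA library. AW011738, a noncoding RNA 2466 bases from Isg15, rose by 1.44 ± 0.18. Plekha4 had 1 mock read and 27 PAMP RNA reads, a ratio of 24.5 (95% counting interval 4.04 to 1005), and lies 62 bases from Ppp1r15a. Tmprss2, a transmembrane serine protease gene 3781 bases from Mx2, rose from 0.896, 0.963 and 3.76 to 10.6, 8.76 and 11.1 (log2 2.09 ± 0.40). Ccrl2 (0.84 ± 0.07), Ccno (1.21 ± 0.22), Cd69 (0.68 ± 0.11), the metallothionein gene Mt2 (0.71 ± 0.09), Cited2 (0.57 ± 0.08) and the guanylate-binding protein gene Gbp5 (0.56 ± 0.08) also rose.

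The 17 falls were small, with 4 of log2 0.5 or more. Ankrd37 went from 61.8, 54.9 and 54.5 to 22.1, 37.6 and 24.7 (log2 -1.03 ± 0.24) and lost its call at adjusted p of 0.0519 to 0.159 without mock replicates 1 and 3 or PAMP RNA replicates 1 and 3 and in 4 of the 12 other settings (adjusted p 0.0973 to 0.31). Marco, a scavenger receptor and the 1 of 18 scavenger and phagocytic receptor genes called, went from 105.7, 90.5 and 87.4 to 71.9, 50.8 and 64.7 (log2 -0.60 ± 0.14), and lost its call at adjusted p of 0.0945 to 0.313 without mock replicate 1 or PAMP RNA replicate 2 and in 3 of the 12 other settings (adjusted p 0.0557 to 0.16). Mamdc2 (log2 -0.82 ± 0.19) lost its call at adjusted p of 0.0638 to 0.218 without mock replicates 2 and 3 or PAMP RNA replicates 2 and 3 and in 4 of the 12 other settings (adjusted p 0.0577 to 0.295). The falls of Igf1, a growth factor gene, and Rnf128, which encodes the E3 ligase GRAIL, were the only 2 of the 17 called in all 18 alternatives. Igf1 was at 951.7, 908.1 and 1036 and then 753.3, 746.9 and 771.9 (log2 -0.35 ± 0.05, adjusted p = 2.27e-05). Rnf128 was at 609.4, 684.7 and 643.7 and then 493.5, 512.3 and 526 (log2 -0.34 ± 0.06, adjusted p = 0.000239). In both genes every PAMP RNA library was below every mock library. Lpl, which encodes lipoprotein lipase, was the most abundant of the falls in counts, at 25210, 25570 and 27760 and then 23900, 22350 and 23360 (log2 -0.17 ± 0.04), and lost its call at adjusted p of 0.0504 to 0.35 without mock replicates 2 and 3 or PAMP RNA replicates 2 and 3 and in 4 of the 12 other settings (adjusted p 0.0727 to 0.99). The number of falls was 32 without mock replicate 1, 6 without mock replicate 3 and 5 without PAMP RNA replicate 2, and 12 of the 17 had their highest mock value in mock replicate 3, as did 39.2% of all genes tested. With totals made equal 8 genes fell, with edgeR 11, and with the 6 libraries fitted alone 4. What part mock replicate 3 has in the falls was not tested.

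The 6 libraries held 7399214 to 8588979 reads (4740909 to 14255730 over the series) with reads on 14712 to 15258 genes, and 1 read was worth 0.817 to 0.963 normalized counts. The lowest correlation of log values between replicates was 0.991 in mock and 0.993 after PAMP RNA. Dendritic cell markers summed to 91916.7 to 96568.9 normalized counts in mock and 89692.1 to 95098.4 after PAMP RNA, and limma called 0 of 15 tested (3 with an unadjusted p under 0.05, 0 by edgeR or DESeq2). Flt3 and Cd209a were below the filter. Macrophage and monocyte markers, led by Lyz2, summed to 167356.4 to 205692.9 and 168915.9 to 193895.6, with Marco the 1 of 12 called, so the libraries hold macrophage as well as dendritic cell transcripts. Plasmacytoid dendritic cell markers summed to 414.0 to 535.6 and 451.0 to 513.2, with Ly6d at 0 reads. Most of this sum was Runx2 (280.5 to 388.1 over the 6 libraries) and Pacsin1 (110.3 to 144.7), while Siglech was at most 0.88. Mast cell and basophil markers summed to 41.4 to 78.9 and 51.9 to 68.6, mostly Gata2 (41.4 to 76.1), with Mcpt8 and Mcpt4 at 0 reads. Neutrophil markers summed to 164.4 to 222.2 and 214.5 to 246.0, with Retnlg at 0 reads. T cell, B cell and erythroid markers each summed to at most 15.8, with Cd3e, Cd3g and Ms4a1 at 0 reads. Fibroblast and stromal markers summed to 2.7 to 5.6 in mock and 8.2 to 11.4 after PAMP RNA, with no overlap and Lum at 0 reads, and their part in the results was not tested. Natural killer markers summed to 160.4 to 163.7 in mock and 181.4 to 201.7 after PAMP RNA, with Ncr1, Gzma and Eomes at 0 reads. Most of this sum was Klrk1, at 141.0 to 151.2 in mock and 167.5 to 184.7 after PAMP RNA, and Prf1 was at most 1.88. Whether natural killer cells were present, and their part in the results, was not tested. Mock replicate 1 was the highest mock library for 42 of the 90 risen genes with a mock read, beside 33.4% of all genes.

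At 3 h, 2322 of the 11853 genes were higher than their own mock (19.6%) and 2603 lower (22.0%), and at 6 h 3803 were higher (32.1%) and 3951 lower (33.3%). With totals made equal these splits became 1607 and 5366 at 3 h, and 1942 and 7402 at 6 h, as the median of all genes moved to -0.20 and -0.39. With quantile normalization they were 1944 and 3798, and 3103 and 4664. Of the 95 genes that rose at 1 h, 85 were also higher at 3 h, 2 were lower and 8 were not called, and at 6 h these counts were 85, 7 and 3. The 82 genes called higher at all 3 times include the 5 interferon genes and the 10 antiviral effectors that rose. The size of the response was compared directly between times, reusing the 1 h libraries on which the 95 were called. It was larger at 3 h for 54 of the 95 and smaller for 11, beside 15.9% and 13.2% of all genes, and larger at 6 h for 64 and smaller for 9, beside 26.9% and 25.3%. With totals made equal the counts were 52 and 18 at 3 h and 52 and 26 at 6 h, and over all genes 1264 larger and 4228 smaller at 3 h and 1596 and 6756 at 6 h. With quantile normalization they were 55 and 15, and 61 and 19, and over all genes 1556 and 2596, and 2504 and 3703. Rsad2 grew from 1.89 at 1 h to 7.59 at 3 h (difference 5.69 ± 0.19), with a mean of 35200 normalized counts against 183.9 in mock. Ifit2 grew from 1.81 to 7.17, Cxcl10 from 3.96 to 7.78 and Isg15 from 1.51 to 5.74. Ifnb1 had 8.83 at 1 h, 8.53 at 3 h and 9.72 at 6 h, and its response at 3 h was not called different from that at 1 h (difference -0.30 ± 0.48, adjusted p = 0.703). Its PAMP RNA means were 571.0, 902.2 and 1287 normalized counts at these times, over mock means of 0.321, 1.58 and 0.839. These mock means rest on very few reads, so the log2 values depend on those reads and on the added count of 1. Ifna2 grew from 4.77 to 6.74 and 8.98, and was the only 1 of the 5 risen interferon genes called larger at 3 h. The other 4 were not called different at 3 h, although quantile normalization also called Ifna4 larger.

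Immediate-early and stress genes differed among themselves in what followed. Of the 10 risen genes of the EGR and other immediate-early families, the response at 3 h was larger than at 1 h for 5, smaller for 2 and not called different for 3, or 5, 4 and 1 with totals made equal or with quantile normalization. The larger ones were Egr1 (1.91 at 1 h and 2.43 at 3 h, adjusted p of the difference 0.00121), Rgs1 (1.22 and 1.99), Plk2 (0.62 and 1.26), Gadd45b (0.36 and 1.12) and Csrnp1 (0.43 and 1.06). Each response is against the mock of its own time, and mock means also differed between times. For Egr1 the PAMP RNA mean was lower at 3 h (788.3) than at 1 h (1067), over mock means of 145.9 and 285.5. By contrast, the PAMP RNA means of Rgs1 (1866 and 2590) and Plk2 (881 and 984.9) were higher at 3 h. Hspa1a also had a larger response at 3 h (0.85 and 1.77), and Hspa1b was not called different. At 3 h Fos, Phlda1 and Ppp1r15a were not called different from 1 h. Fos was at 1.10, 1.23 and 1.60 at 1, 3 and 6 h, and Phlda1 was at 1.75, 1.87 and 1.67. The Fos PAMP RNA mean was 428.8 at 1 h and 290.0 at 3 h, over mock means of 199.6 and 123.5. Ppp1r15a was at 1.73, 1.85 and 1.53. The response at 3 h was smaller than at 1 h for Jun (0.37, difference -0.59 ± 0.14), Dusp1 (0.47), Btg2 (0.20), Atf4 (0.02), Sdc4 (0.16), Clk1, Hexim1, Fam43a, Aaas, Ier3 and Adm. For Sdc4 the PAMP RNA mean was higher at 3 h (463.5) than at 1 h (175.8), over mock means of 414.5 and 89.2. For Jun the PAMP RNA mean was lower at 3 h (1924) than at 1 h (2348), over mock means of 1486 and 1203. Ier3 turned from 0.76 at 1 h to -0.81 at 3 h, and its mock mean was 280.5 normalized counts at 1 h and 904.5 at 3 h. Adm turned from 1.95 to -1.04 and -1.05, with a mock mean of 1.57 at 1 h and 26.5 at 3 h. In both genes the mock mean differed more between the times than the PAMP RNA mean, which for Adm was 8.74 and 12.8 and for Ier3 476 and 516.7. Mt2 and Rnd3 were higher at 1 and 3 h and lower at 6 h.

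**Figure D4:**
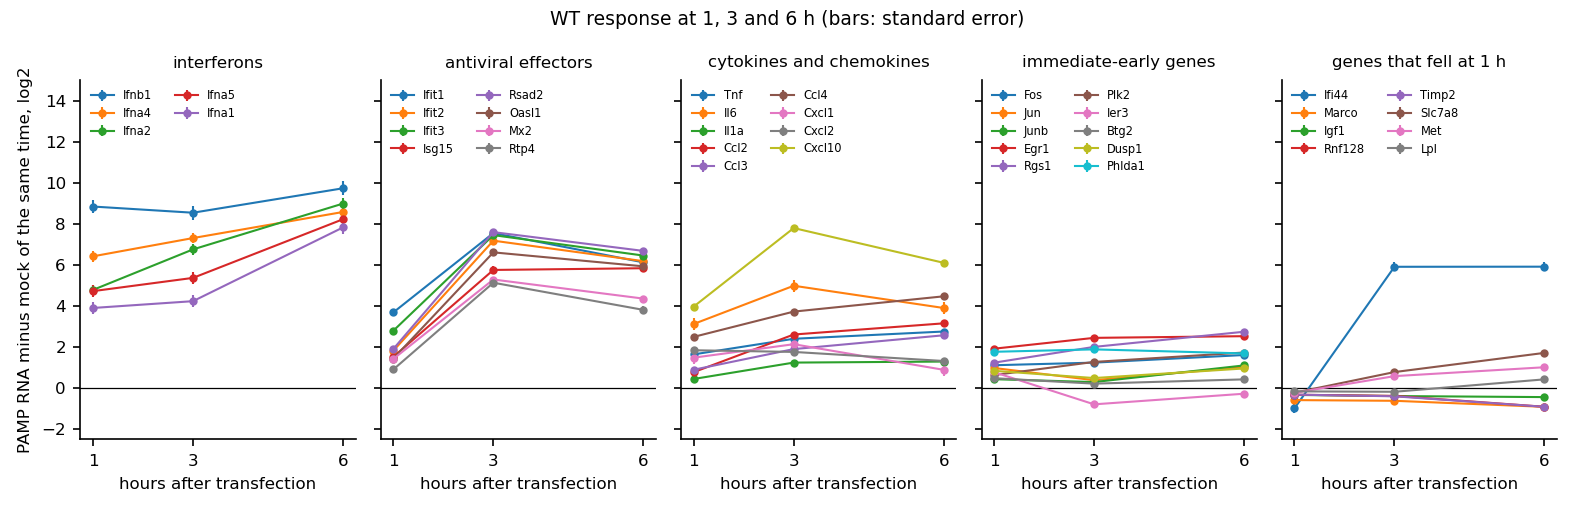
Each line is a wild-type gene, with the difference of PAMP RNA from the mock of the same time on the log2(normalized count + 1) scale at 1, 3 and 6 h and its standard error as a bar. Antiviral effectors climb between 1 and 3 h, for example Rsad2 from 1.89 to 7.59, while immediate-early genes differ, with Rgs1 going from 1.22 to 1.99, Fos from 1.10 to 1.23 and Jun from 0.96 to 0.37.

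All 38 listed ISGF3-dependent genes were higher at 3 h, with a median of 2.82, against 2 at 1 h. Over all genes tested 19.6% were higher at 3 h and 0.801% at 1 h. The list was chosen with earlier results of these data known, so these counts are a description and not a test. Mx1 was at 0.27 at 1 h and 3.62 at 3 h, Irf7 at 0.32 and 6.19, and Cd40 at 0.21 and 3.84. Of the 17 genes that fell at 1 h, 6 were higher at both 3 and 6 h, among them Ifi44 (5.90 at 3 h) and Slc7a8 (0.77 and 1.70), and 7 were lower at both, among them Marco, Igf1, Rnf128 and Timp2. Among the 17, 6 were higher and 8 lower at 3 h, and 9 and 7 at 6 h, which with totals made equal became 5 and 10, and 4 and 7.

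In the libraries labelled KO at 1 h, 141 genes were higher than mock (1.19%) and 20 lower (0.169%), with their own mock libraries. Dhx58 itself was not lower there: its mean was 147.3 normalized counts in KO mock and 93.6 in WT mock, and what part of the gene these reads cover was not analysed here. Of the 95 WT rises, 83 were called in KO, 87.4% of the WT list and 58.9% of the KO list. The response was larger in KO for 14 genes, all among the 95 (0.118% of genes tested), and smaller for none (237 genes smaller at an unadjusted p under 0.05, and 0 in edgeR and DESeq2). EdgeR called 9 larger and DESeq2 15. Cxcl10 rose by 3.96 in WT and 5.26 in KO (difference 1.30 ± 0.20, adjusted p = 8.40e-05), with means of 23.5 and 378.8 in WT against 13 and 529.5 in KO. Egr1 rose by 1.91 and 2.90 (difference 0.99 ± 0.13), Cxcl2 by 1.83 and 2.89, and Tnf by 1.63 and 2.44. The mean mock level was lower in KO in each of these 4 genes, a difference not tested here, and also in others of the 14, as given below. For Cxcl2 the PAMP RNA means were 731.6 in WT and 743.8 in KO, above mock means of 210.7 and 99.8. Ifnb1 rose by 8.83 in WT and 9.33 in KO, a difference of 0.50 ± 0.48 that did not pass (adjusted p = 1). The differences of Ifna4 (1.05 ± 0.37), Ifna1 (1.06 ± 0.43), Ifna5 (1.01 ± 0.42) and Ifna2 (0.90 ± 0.37) did not pass either (adjusted p from 0.826 to 1), at sizes like those of Egr1 and Cxcl2 but with larger standard errors.

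**Figure D5:**
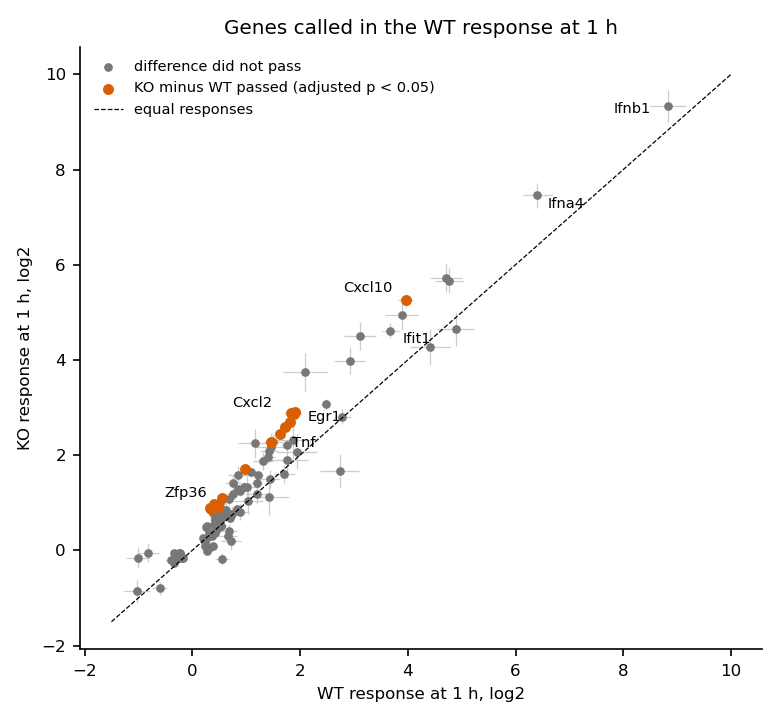
Each point is 1 of the 112 genes called in the wild-type response at 1 h, with its wild-type response on the horizontal axis and its response in libraries labelled KO on the vertical axis, both in log2 with standard errors. The 14 genes whose difference passed (orange), such as Cxcl10 at 3.96 and 5.26, lie above the dashed line of equal responses.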

How the data were processed

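RNA of CD11c-selected bone marrow-derived dendritic cells was made into SMARTer and Nextera XT libraries and read as single 100-base reads, per the labels' protocols. The submitters' processing notes name TopHat, Cufflinks and DESeq2, with no version, and the builds GRCm38 and mm10. The deposited signal values are gene counts that the authors divided by size factors, per the submitters' processing notes and the values, in 1 table of 24127 genes and 36 libraries. Multiples of 1 read gave whole reads for 100% of the values (tolerance 0.01), so the depth of each library is known, and intervals cover counting error only.

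Log2(normalized count + 1) was fitted in limma 3.58.1 (R 4.3.3) with a mean trend and 12 group means over all 36 libraries (24 residual degrees of freedom), for the 11853 genes with a mean of at least 10, and p-values were adjusted by Benjamini-Hochberg (threshold 0.05). Log2 changes are on that scale and understate low genes, and ± is the standard error. Count tests on the recovered reads (edgeR 4.0.16, quasi-likelihood, and DESeq2 1.42.0) were alternatives. Others were the pseudocounts 0.5 and 5, other filters, quantile normalization, equal totals, a replicate block, no trend, the 6 libraries alone and leaving out each library. The code was tested on simulated data.

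Named genes are Dhx58, a fixed panel, the largest changes with non-overlapping libraries, and up to 6 members, or every called member where 8 or fewer, of each list. Members, the 28 lists and 10 marker lists were chosen with earlier results of these data known. Older symbols were matched through RefSeq synonyms, and promoters and gene positions are from RefSeq, GRCm38.p6. The value of 1 gene of the panel is not reported here.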

Additional observations from a re-analysis of the deposited data

Results flagged for a closer look

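The response at 1 h differed between genotypes in a test of the difference itself (limma, adjusted over all genes) for 14 genes, each with a larger rise in the libraries labelled KO. The difference in log2 was 1.30 for Cxcl10, 1.06 for Cxcl2, 0.99 for Egr1, 0.98 for Rsad2, 0.88 for Ifit2 and 0.87 for Ppp1r15a. It was 0.82 for Nfkbiz, 0.81 for Tnf, 0.75 for Sdc4, 0.56 for Irg1, 0.56 for Tnfaip3, 0.53 for Gbp5, 0.52 for Nfkbia and 0.42 for Zfp36. The mean mock level was lower in KO than in WT in all of these genes but Gbp5, which was not compared. For Zfp36 the mock means were 1571 in WT and 1045 in KO, and the PAMP RNA means were 2199 and 1955. In the other genes compared the PAMP RNA mean was higher in KO. What part the mock levels have in the differences was not tested. The 14 genes hold Nfkbiz, Tnfaip3 and Nfkbia, the 3 members of the list of NF-kB inhibitors and brakes that rose in wild-type cells. Of all 95 genes that rose, they hold 14. The list was chosen with earlier results of these data known, and the Nfkbiz product IkB-zeta is a nuclear regulator. The test of the difference reuses the wild-type libraries in which the 95 genes were called. The differences of Ifna4 (1.05), Ifna1 (1.06), Ifna5 (1.01) and Ifna2 (0.90) were of like size but did not pass (adjusted p from 0.826 to 1).

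The wild-type response at 3 h differed from that at 1 h for 65 of the 95 genes that rose and 9 of the 17 that fell at 1 h, and the response at 6 h differed for 73 and 13. These tests reuse the 1 h libraries in which the genes were called.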

How the results depend on the processing

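The number of genes that rose at 1 h stayed within 1.5 times of 95 in all 18 alternatives, from 65 with the 6 libraries alone to 116 with equal totals, and no called gene changed sign. The number that fell (17) was 5 with no filter, 8 with equal totals, 4 with the 6 libraries alone and 11 with edgeR, and ranged from 5 to 32 with 1 library left out. The 20 falls in KO at 1 h were 10 with equal totals and 9 with DESeq2, and ranged from 4 to 19 with 1 library left out, fewest without KO mock replicate 3. With equal totals the lower genes at 3 h rose from 2603 to 5366, the higher genes at 6 h went from 3803 to 1942 and the lower from 3951 to 7402. For the response at 3 h minus 1 h the smaller responses numbered 1565, 2596 with quantile normalization and 4228 with equal totals. For 6 h minus 1 h the larger numbered 3193, or 1596 with equal totals, and the smaller 2996, or 6756. The larger responses in KO than WT numbered 14, or 9 with edgeR, and the smaller 0, 1 with no filter and 2 without a mean trend. The cause was not tested. The replicate numbers did not pair the libraries: residuals of same-numbered mock and PAMP RNA libraries correlated at -0.046, -0.032 and -0.064, and 12 of 36 libraries were closest to their own number. With the replicate block 95 genes rose and 22 fell, and 93 of the 95 and 17 of the 17 were among them. At this depth 1 read is nearly 1 normalized count, so a change in interferon genes with at most 3 reads was not detectable.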
